A study of Mus musculus with 16 samples.

Results

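The genes described here encode secretory proteins of the mouse seminal vesicle, measured on arrays of prostate tissue and prostate carcinoma. The 7 genes are Svs1, Svs2, Svs3a, Svs4, Svs5, Svs6 and Pate4, out of 16593 named genes on the array, and they have 8 of its 25697 probes. They were listed by name, with results of these arrays already known, and the probe of each gene was chosen by its measured level, as the one with the highest mean over the 16 arrays, which takes in both groups of every comparison. Svs2 has a second probe, whose values are given beside those of the first; counts of genes use the first. The levels themselves are therefore a description, and the counts of genes that passed a test are not independent evidence.

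The seminal vesicle is the gland that supplies most of the fluid of the mouse ejaculate, and androgens maintain its secretion. Svs2 encodes the main protein of the copulatory plug, which the prostate transglutaminase Tgm4 crosslinks, and Svs3a encodes another protein of the clot. Svs4, Svs5 and Svs6 encode small secreted proteins of the same gene cluster, Svs1 an amine oxidase-like secreted protein, and Pate4 (also called SVS7 or caltrin) a small protein that binds sperm and limits their calcium uptake. The vesicles lie against the prostate and empty into the same urethra, so vesicle tissue can be taken along when prostate lobes are dissected. Whether the transcripts measured here came from vesicle or from prostate cells was not tested.

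TRAMP mice carry the SV40 T antigens under the probasin promoter, which is active in prostate epithelium. Dorsal-lateral prostate (DLP) lobes were taken at 28 and at 16 weeks of age, with 1 array for each age, from TRAMP mice given D/DA, TRAMP mice given AGN, TRAMP mice given vehicle, and C57BL/6 wild-type mice. AGN is a root extract of Angelica gigas, and D/DA its pyranocoumarins, per the series title. Neuroendocrine carcinomas (NECa) came from TRAMP mice given AGN (3 arrays) or vehicle (3 arrays), and 2 whole prostates came from wild-type mice of 24 to 28 weeks, whose strain field reads TRAMP. The sources used here do not give doses or the ages of the carcinomas. The design text lists 14 and 10 AGN mice and 13 and 11 D/DA mice at 28 and 16 weeks, but the labels do not say whether a DLP array held RNA of 1 mouse or of a pool. Nothing in the labels states that arrays of 1 group came from separate animals. A p-value between carcinomas and whole prostates thus reflects how far these samples spread, which may be technical. The DLP fit has 1 array per treatment and age and takes a treatment difference as equal at both ages. Its residual, and so its p-values, hold any change of a treatment difference with age.

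All values are normalized intensities as deposited, on the log2 scale, where a probe with no signal reads near 7.2 because background was not brought to 0. The array medians ran from 151 to 166 in intensity and the highest probe of an array from 20502 to 69911. Levels of different genes are not set against each other, since each probe has its own brightness. The labelled tissues carried their own markers: the 19 measured prostate secretory genes averaged 7.24 to 8.08 on the 6 NECa arrays, against 9.72 to 11.66 on the 10 gland arrays (8 DLP and 2 whole prostates), and the neuroendocrine gene Syp read 10.83 to 11.61 on the NECa arrays, against 7.50 to 8.97 on the gland arrays. Of 9 transcription factors of the seminal vesicle and Wolffian duct, Gata3 read 10.69 to 11.40 on the gland arrays, and the list averaged 7.76 to 7.91 there. The 13 measured epididymis and vas deferens genes averaged 7.28 to 7.54 on the gland arrays.

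**Figure D1:**
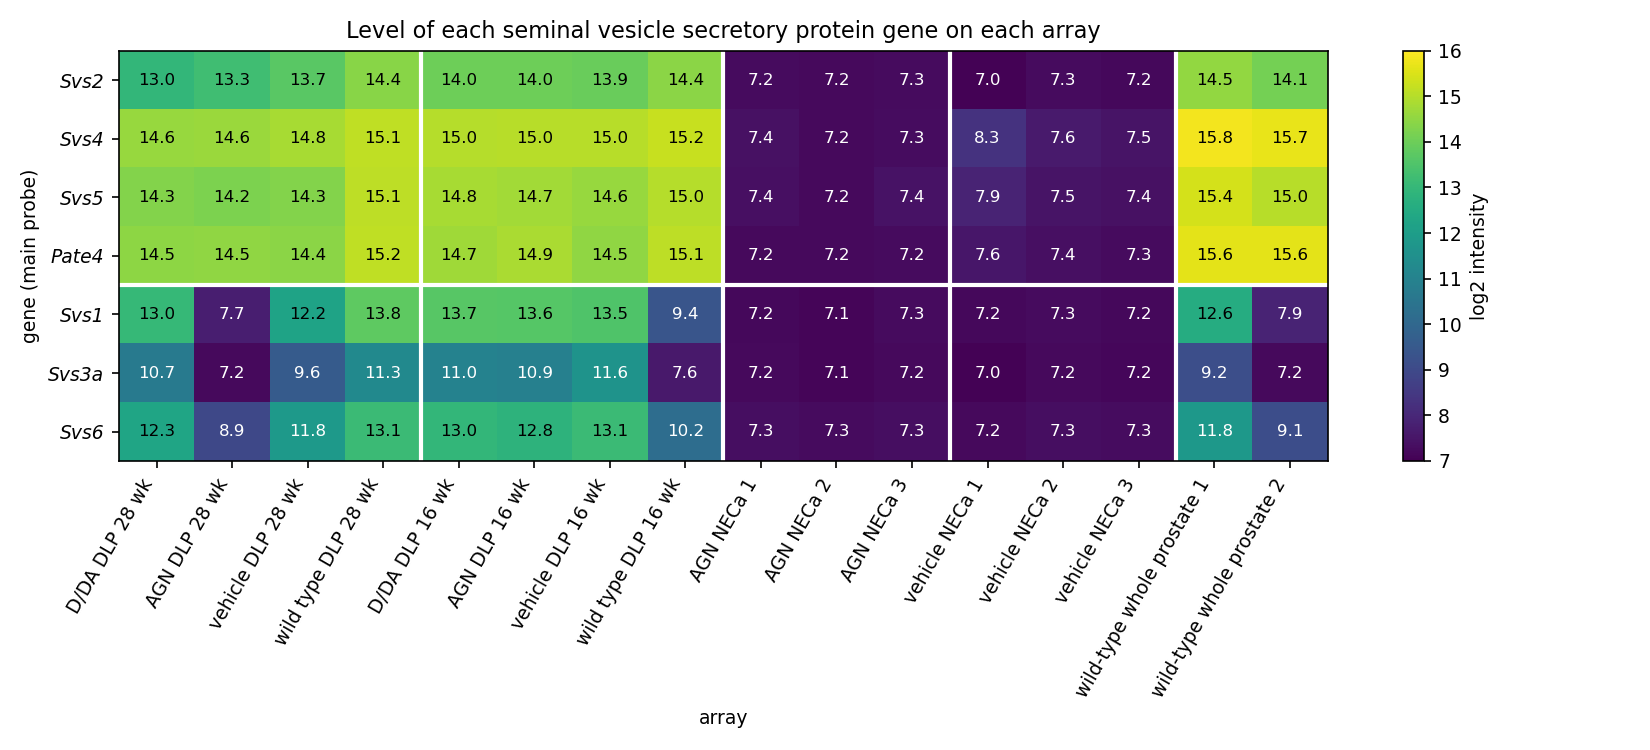
The heat map gives the log2 intensity of each of the 7 genes (rows, main probe) on each of the 16 arrays (columns); white lines part the array groups and, across, the genes that varied little from those that varied widely among gland arrays. Svs2, Svs4, Svs5 and Pate4 were bright on all 10 gland arrays, Svs1, Svs3a and Svs6 were dim on 28-week AGN DLP, 16-week wild-type DLP and wild-type whole prostate 2, and all 7 lay near 7 on most NECa arrays.

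All 7 genes were far above background on most gland arrays, but they did not vary as 1 group. Svs2, Svs4, Svs5 and Pate4 stayed within 1.18 to 1.56 log2 units over the 10 gland arrays, whereas Svs1 spanned 6.01 units (64.6-fold), Svs3a 4.41 units (21.3-fold) and Svs6 4.20 units (18.4-fold). This division into 4 steady and 3 variable genes, by their main probes, was made after the values were seen and is given with no test. The second Svs2 probe spanned 2.90 units. The steady genes were read at the top of the scale: Svs4 lay 0 to 0.36 log2 units below the brightest probe of its array, Pate4 0.28 to 0.60, Svs5 0.40 to 1.01 and Svs2 1.08 to 1.90, and Svs4 was itself the brightest with vehicle at 16 weeks. The brightest probe read 14.78 to 15.34 on the 6 TRAMP DLP arrays, against 15.50 to 16.09 on the 4 wild-type gland arrays. It was not the same gene throughout: it was the prostate gene Tgm4 on both wild-type DLP arrays and whole prostate 2, and Msmb with D/DA and with AGN at 16 weeks. Whether a ceiling narrowed the range of these genes was not tested. Over the 8 DLP arrays the 3 variable genes correlated with each other at Pearson's r of 0.98 to 0.99 (3 pairs), the 4 steady genes at 0.81 to 0.98 (6 pairs), and genes of different sets at -0.02 to 0.38 (12 pairs). These correlations describe 8 arrays that share their labelling and normalization.

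Among gland arrays Svs1 had the widest span. In DLP at 28 weeks it read 13.04 with D/DA, 7.75 with AGN, 12.21 with vehicle and 13.76 in wild type. At 16 weeks Svs1 read 13.66 with D/DA, 13.63 with AGN, 13.51 with vehicle and 9.39 in wild type. The low arrays were thus a treated TRAMP array at 28 weeks and the wild-type array at 16 weeks, which share neither genotype nor age. The 6 NECa arrays stayed between 7.12 and 7.27, while the 2 wild-type whole prostates differed widely, at 12.57 and 7.91.

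Svs3a, the clot protein gene of this set, was low on the same arrays. In DLP at 28 weeks it read 10.67 with D/DA, 7.22 with AGN, 9.60 with vehicle and 11.25 in wild type, and at 16 weeks 11.00 with D/DA, 10.93 with AGN, 11.63 with vehicle and 7.63 in wild type. The whole prostates read 9.16 and 7.22. At 7.22, Svs3a on the AGN array of 28 weeks and on whole prostate 2 was inside its range on the NECa arrays (7.04 to 7.24), that is at background. Svs3a has a close paralog, Svs3b, and signal from one on the probe of the other was not tested.

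Svs6 followed the same order with some signal left on every gland array. In DLP at 28 weeks it read 12.30 with D/DA, 8.94 with AGN, 11.83 with vehicle and 13.12 in wild type. At 16 weeks Svs6 read 12.96 with D/DA, 12.80 with AGN, 13.14 with vehicle and 10.21 in wild type. The NECa arrays read 7.25 to 7.35 and the whole prostates 11.79 and 9.12, so all NECa arrays were below all 10 gland arrays. The same held for the other genes except Svs3a, and the share of all probes parted in this way is not given here.

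The steady genes moved in small steps on the same arrays. Svs2, the plug protein gene, read 12.97 with D/DA, 13.25 with AGN, 13.69 with vehicle and 14.40 in wild type in DLP at 28 weeks. At 16 weeks Svs2 read 14.01 with D/DA, 14.00 with AGN, 13.94 with vehicle and 14.42 in wild type, and the whole prostates read 14.53 and 14.13. Its second probe gave a wider spread, with 12.01, 12.41, 13.15 and 14.38 for D/DA, AGN, vehicle and wild type at 28 weeks and 13.96, 13.50, 13.52 and 14.91 at 16 weeks.

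Pate4, the sperm calcium-uptake inhibitor, separated TRAMP from wild-type arrays. In DLP at 28 weeks it read 14.45 with D/DA, 14.50 with AGN, 14.43 with vehicle and 15.15 in wild type, and at 16 weeks 14.72 with D/DA, 14.86 with AGN, 14.50 with vehicle and 15.12 in wild type. The whole prostates read 15.64 and 15.62. All 6 TRAMP DLP arrays were below all 4 wild-type gland arrays for Pate4, and the same held for Svs2 (both probes), Svs4 and Svs5, as it did for the brightest probe of each array. The share of all probes that part these arrays in this way is not given here, so the separation is not shown to be particular to these genes.

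The small secreted protein genes Svs4 and Svs5 stayed in a narrow range. Svs4 read 14.61 with D/DA, 14.64 with AGN, 14.84 with vehicle and 15.14 in wild type at 28 weeks, and 15.00, 15.03, 15.03 and 15.25 in the same order at 16 weeks. Svs5 read 14.35 with D/DA, 14.24 with AGN, 14.32 with vehicle and 15.10 in wild type at 28 weeks, and 14.83, 14.74, 14.60 and 14.98 at 16 weeks. On the AGN array of 28 weeks Svs5 was at its lowest and Svs4 at its second lowest among gland arrays, by small steps, and on the wild-type array of 16 weeks both were above all TRAMP DLP arrays, whereas Svs1, Svs3a and Svs6 had their lowest DLP values on these 2 arrays. The whole prostates read 15.84 and 15.70 for Svs4 and 15.42 and 15.02 for Svs5.

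The genes of both sets lie side by side in the genome. Svs2, Svs3b, Svs4, Svs3a, Svs6 and Svs5 are neighbours in that order on mouse chromosome 2, between Wfdc15b and Slpi in the RefSeq annotation of GRCm38.p6, while Svs1 is on chromosome 6 and Pate4 on chromosome 9. The variable genes Svs3a and Svs6 therefore sit among steady ones. The 250 bases before the annotated start were taken from RefSeq (GRCm38.p6) for 6 of the 7 genes, and 4 of them are shown because they let the steady Svs5 and Svs4 be compared with the variable Svs6 and Svs3a. Capitals mark GATAAG and TATAAA on either strand (as CTTATC and TTTATA on the other), motifs chosen after the sequences were seen; no 2 of these matches overlap. The stretches are Svs5 at chr2:164332515-164332764 (+ strand), Svs6 at chr2:164316501-164316750 (+ strand), Svs4 at chr2:164278308-164278557 (- strand) and Svs3a at chr2:164289017-164289266 (+ strand), each written 5′ to 3′.
Svs5: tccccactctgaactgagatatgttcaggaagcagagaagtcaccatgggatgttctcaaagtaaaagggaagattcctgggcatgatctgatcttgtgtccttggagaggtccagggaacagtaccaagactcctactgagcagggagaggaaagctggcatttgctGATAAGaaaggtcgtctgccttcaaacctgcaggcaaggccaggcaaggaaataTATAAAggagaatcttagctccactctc
Svs6: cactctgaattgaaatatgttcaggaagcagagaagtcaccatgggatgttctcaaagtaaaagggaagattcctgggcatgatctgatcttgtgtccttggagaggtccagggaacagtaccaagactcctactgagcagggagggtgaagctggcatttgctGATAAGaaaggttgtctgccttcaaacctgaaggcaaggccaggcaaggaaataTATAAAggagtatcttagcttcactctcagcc
Svs4: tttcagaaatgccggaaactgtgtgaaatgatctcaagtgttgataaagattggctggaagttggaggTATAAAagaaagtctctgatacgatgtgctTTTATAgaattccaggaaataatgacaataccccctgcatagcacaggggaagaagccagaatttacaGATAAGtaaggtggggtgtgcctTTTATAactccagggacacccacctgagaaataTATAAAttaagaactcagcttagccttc
Svs3a: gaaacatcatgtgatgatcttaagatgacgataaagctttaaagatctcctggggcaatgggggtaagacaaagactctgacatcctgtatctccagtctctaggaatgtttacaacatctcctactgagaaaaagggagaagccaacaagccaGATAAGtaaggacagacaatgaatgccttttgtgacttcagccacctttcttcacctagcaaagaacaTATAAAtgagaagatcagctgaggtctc

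Svs5 and Svs6 were identical at 237 of 246 aligned bases (96.3%), the other 14 pairs among the 6 genes at 59.4% to 70.8%. Both carry 1 GATAAG, 82 and 86 bases before the start, and 1 TATAAA, 28 and 32 bases before it. Svs4 has its GATAAG at 84 bases and Svs3a at 96 bases before the start, each with a TATAAA at 28 bases, and Svs4 has 3 more TATAAA matches. Svs2 holds 2 TATAAA matches and no GATAAG, and Svs1 holds neither. Of 32536 mouse promoter windows of the same length, 6.42% hold GATAAG, 12.3% hold TATAAA and 1.16% hold both. The androgen receptor half-site AGAACA (or TGTTCT) occurs once each upstream of Svs1, Svs3a, Svs5 and Svs6 and not upstream of Svs2 or Svs4, against 16.0% of all windows with a match, and the full palindrome, AGAACA and TGTTCT parted by any 3 bases, in none of the 6 (0.00922% of all windows). The matches are letters in a window and do not show a site in use. Svs5 and Svs6, the pair with the most alike upstream sequence, were placed on opposite sides of the division, which was made after the values were seen. Whether upstream sequence has a part in the array pattern was not tested.

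The first comparison set carcinomas against wild-type whole prostate. In vehicle-treated NECa 6 of the 7 genes fell, against 28.7% of all probes called, 12.4% higher and 16.3% lower (limma, adjusted p under 0.05 over 25697 probes). The calls over all probes divided into 3181 higher and 4197 lower, and into 3091 and 8753 after normexp background subtraction. Pate4 averaged 7.39 ± 0.15 in NECa (SD, n = 3) and 15.63 ± 0.014 in whole prostate (SD, n = 2), a log2 difference of -8.24 ± 0.15 (SE, limma adjusted p = 5.48e-11). Svs4 fell by 7.95 ± 0.22, Svs5 by 7.63 ± 0.19 and Svs2 by 7.15 ± 0.15 (limma adjusted p = 1.69e-09 for Svs4, 7.34e-10 for Svs5 and 1.93e-10 for Svs2). The groups did not overlap for these 4 genes, nor for Svs1 and Svs6, and the share of all probes without overlap is not given here. With NECa values near background, which was not brought to 0, these differences are understated.

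The variable genes gave less certain differences, and 1 whole prostate was low for all 3. Svs6 fell (-3.16 ± 0.53, SE, limma adjusted p = 0.000668), as did Svs1 (-3.04 ± 0.91, adjusted p = 0.0255), and Svs3a differed by -1.04 ± 0.38 (adjusted p = 0.0663) with overlapping groups. Without whole prostate 2, the differences were -5.37 for Svs1, -4.50 for Svs6 and -2.01 for Svs3a. Without whole prostate 1, the differences shrank to -0.70 for Svs1, -1.82 for Svs6 and -0.069 for Svs3a. The call of Svs1 was lost without vehicle NECa 1 (adjusted p = 0.0527) or vehicle NECa 2 (adjusted p = 0.0554). The median difference over the 7 genes was -7.15, against -0.010 over all named genes.

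**Figure D2:**
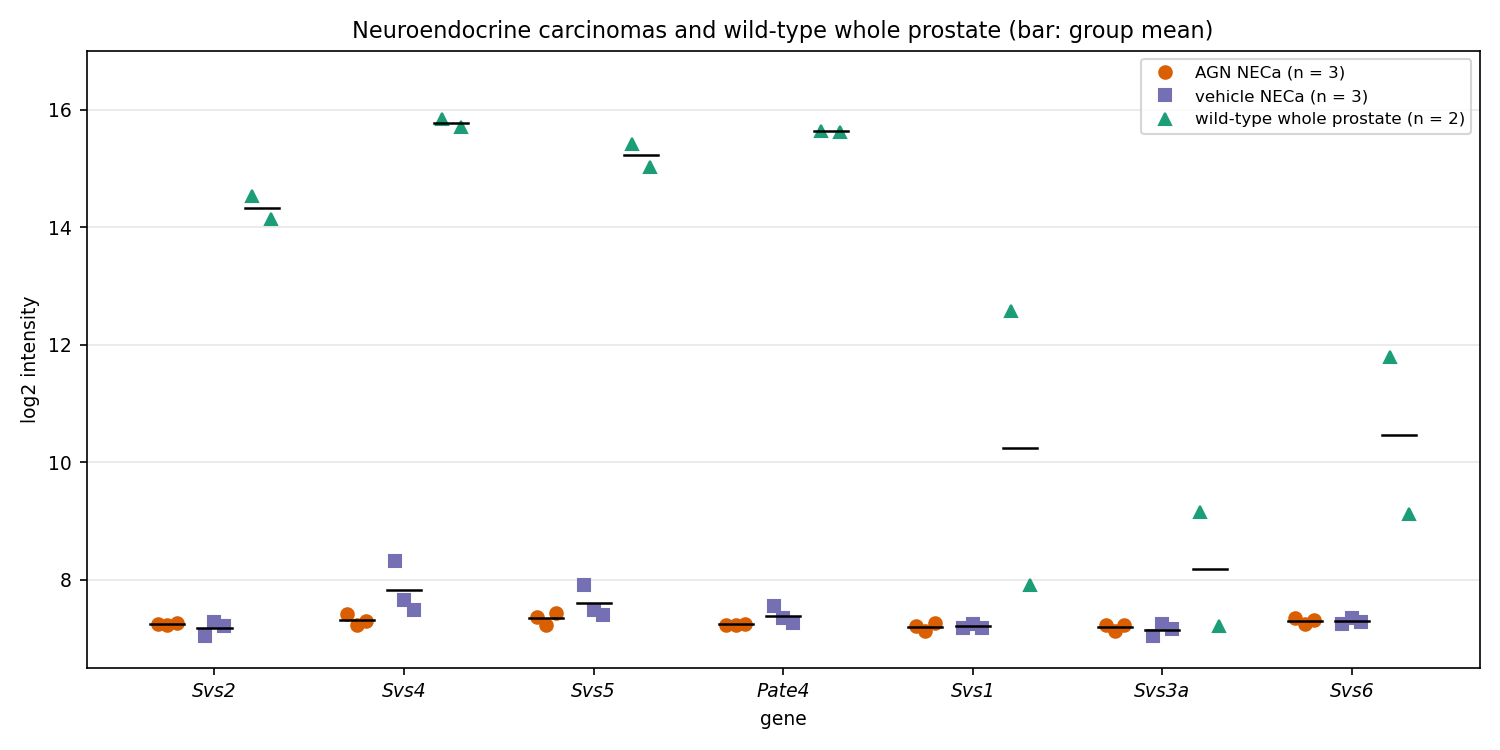
Points give the log2 intensity (vertical axis) of each gene on the 3 AGN NECa, 3 vehicle NECa and 2 wild-type whole prostate arrays, and black bars the group means. The 4 genes on the left were at most 8.31 in every carcinoma and at least 14.13 in whole prostate, while the 3 on the right differed by 1.94 to 4.66 between the 2 whole prostates.

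AGN-treated NECa were set against the same 2 whole prostates, so the 2 comparisons share their controls and are given side by side. Again 6 of 7 genes fell, against 31% of all probes called, 14.4% higher and 16.5% lower (limma, adjusted p under 0.05). The calls divided into 3713 higher and 4245 lower, and into 3220 and 9492 after normexp. The differences were -8.46 for Svs4, -8.39 for Pate4, -7.88 for Svs5, -7.08 for Svs2, -3.15 for Svs6 (adjusted p = 0.000629) and -3.05 for Svs1 (adjusted p = 0.0236). Svs3a differed by -0.99 (adjusted p = 0.0758). Without whole prostate 2 the differences were -5.38 for Svs1, -4.49 for Svs6 and -1.96 for Svs3a. Without whole prostate 1 they were -0.71, -1.81 and -0.018 in the same order. The call of Svs1 was lost without AGN NECa 2 (adjusted p = 0.0532).

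Between AGN-treated and vehicle-treated carcinomas, 0 of the 7 genes passed the test (limma, adjusted p under 0.05). Of all probes 0.0389% passed, 0.00778% higher and 0.0311% lower. At an unadjusted p under 0.05 there was 1 gene, Svs4, beside 1578 of all 25697 probes. Svs4 read 7.42, 7.22 and 7.29 in AGN NECa, against 8.31, 7.65 and 7.49 in vehicle NECa, a log2 difference of -0.51 ± 0.18 (SE, limma adjusted p = 0.573). The groups did not overlap for Svs4, nor for Pate4, and vehicle NECa 1 was the highest for Svs4. The share of all probes without overlap in this comparison is not given here. Without vehicle NECa 1 the difference was -0.26. Svs5 read 7.37, 7.24 and 7.43 in AGN NECa, against 7.91, 7.48 and 7.40 in vehicle NECa (difference -0.25, limma adjusted p = 0.871). Pate4 read 7.23, 7.23 and 7.25 in AGN NECa, against 7.55, 7.35 and 7.26 in vehicle NECa (difference -0.15, limma adjusted p = 0.885). All 3 genes were highest on vehicle NECa 1, which also had the highest mean of the 9 measured smooth muscle genes among carcinomas (10.18, against 7.93 to 9.09 on the other 5) and of the macrophage genes (10.11, against 8.57 to 9.01). Their part in the result was not tested.

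On AGN NECa 2, the 19 prostate secretory genes averaged 8.08, against 7.24 to 7.56 on the other carcinoma arrays. Defb50 read 11.66 and Msmb 11.44 (at most 8.77 and 8.22 on the other carcinoma arrays), while Tgm4 and Pbsn read 7.23 and 7.19, near background. The 7 genes stayed between 7.12 and 7.25 there, and of the other seminal vesicle genes 9530002B09Rik read 8.50.

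Vehicle-treated TRAMP DLP was then set against wild-type DLP. The groups differ in the transgene and in vehicle, which is stated for the TRAMP mice alone, and these cannot be told apart. The additive fit over 8 arrays, with terms for treatment and age and 3 residual degrees of freedom, called 1 of the 7 genes, against 7.5% of all probes called, 3.02% higher and 4.48% lower. The calls divided into 775 higher and 1152 lower as deposited, but into 917 and 641 after median centring, 852 and 736 after normexp and 786 and 713 after quantile normalization. Pate4 fell: it averaged 14.46 ± 0.047 in vehicle DLP and 15.14 ± 0.024 in wild-type DLP (SD, n = 2 each). With 1 array of each age in a group, these SDs are between ages and not between replicates. The log2 difference was -0.67 ± 0.13 (SE, limma adjusted p = 0.0163). Beside this, the brightest probe of the array read 14.90 and 15.03 in vehicle DLP and 15.50 and 15.58 (Tgm4) in wild-type DLP. After quantile normalization Pate4 still fell (-0.31, adjusted p = 0.0468). The call was lost without the vehicle array of 16 weeks (adjusted p = 0.181) or of 28 weeks (adjusted p = 0.110). Svs5 differed by -0.58 (adjusted p = 0.0581) and Svs2 by -0.59 (adjusted p = 0.129), and the second Svs2 probe fell by 1.31 ± 0.32 (limma adjusted p = 0.0410). Svs4 differed by -0.26 (adjusted p = 0.183), a direction that flips to +0.34 under quantile normalization (adjusted p = 0.0127).

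The variable genes had no settled direction between vehicle and wild-type DLP, since the 2 ages went opposite ways. At 28 weeks Svs1, Svs3a and Svs6 were lower with vehicle than in wild type, by 2.94-fold, 3.15-fold and 2.44-fold (log2 differences -1.56, -1.65 and -1.29). At 16 weeks they were higher with vehicle, by at least 17.4-fold, 16.0-fold and 7.64-fold (4.12, 4.0 and 2.93), lower bounds because the low array's values include background. The second Svs2 probe was lower with vehicle at both ages (-1.23 and -1.39). With 1 array each these are differences between arrays, with no test; a log2 difference of at least 1 was seen for 2.39% of all probes at 28 weeks (1.14% higher and 1.25% lower) and for 1.47% at 16 weeks (0.879% higher and 0.588% lower). The fitted differences over both ages were 1.28 ± 1.74 for Svs1 (SE, limma adjusted p = 0.651), 1.18 for Svs3a (adjusted p = 0.576) and 0.82 for Svs6 (adjusted p = 0.664). They rest on the wild-type arrays, and the opposite directions at the 2 ages go into their SE. Without wild type at 16 weeks the differences of Svs1, Svs3a and Svs6 were -2.20, -1.65 and -1.61. Without wild type at 28 weeks they were 4.77, 4.0 and 3.25.

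**Figure D3:**
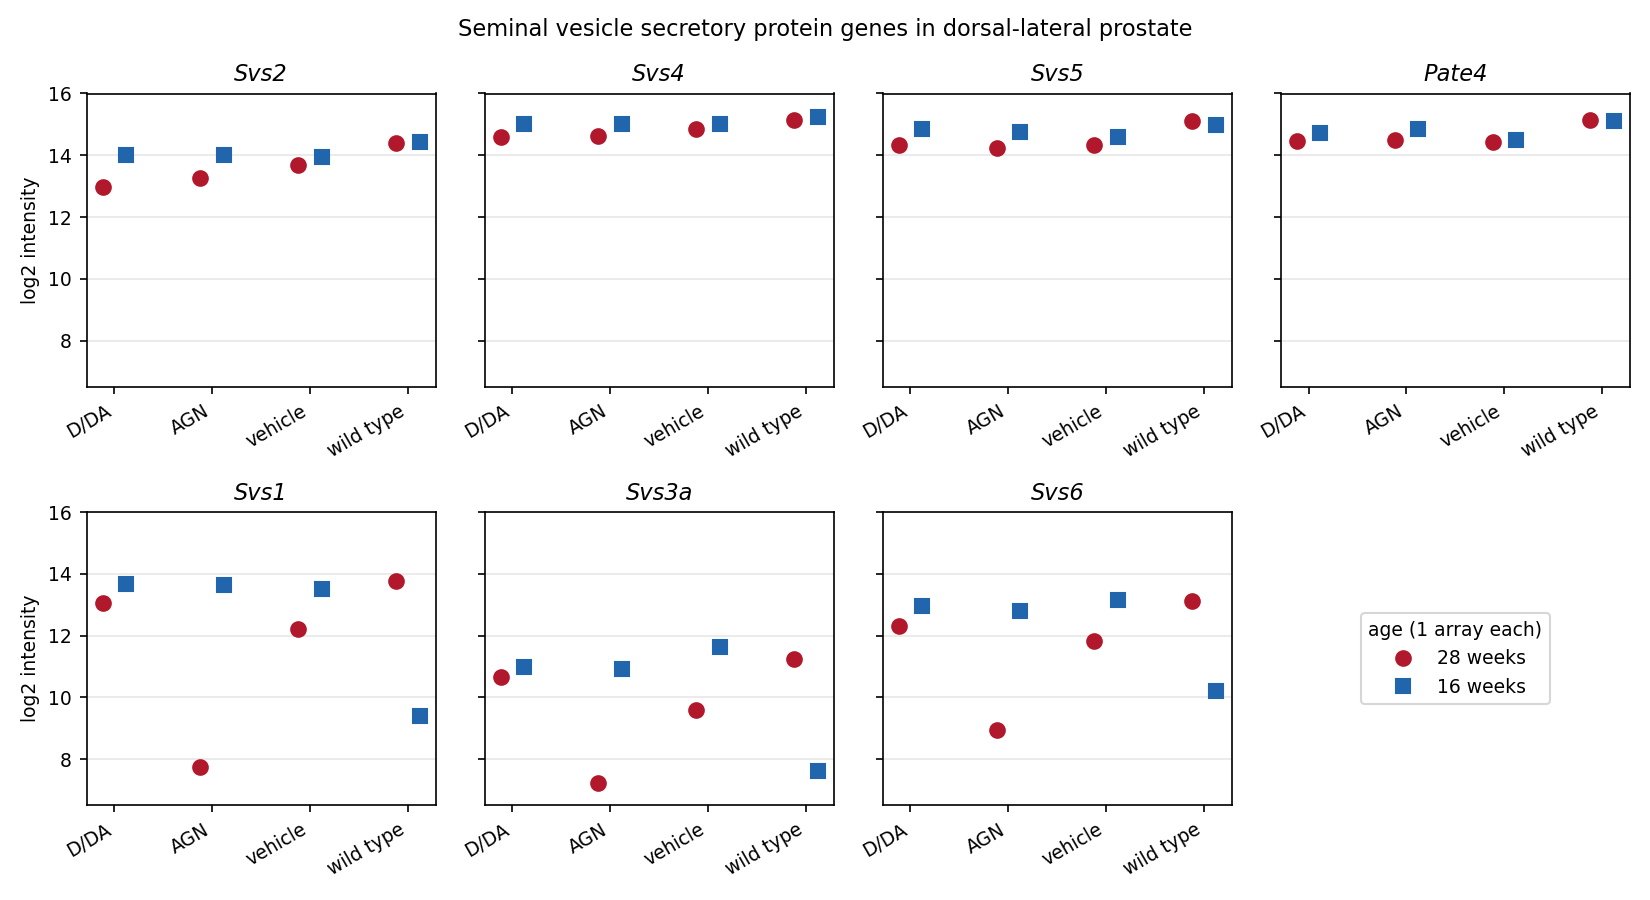
Each panel gives the log2 intensity of 1 gene in dorsal-lateral prostate with D/DA, AGN, vehicle or in wild type, with 1 array for each age (circles 28 weeks, squares 16 weeks). Svs2, Svs4, Svs5 and Pate4 lay between 12.97 and 15.25 throughout, and Svs1, Svs3a and Svs6 had 2 low arrays, AGN at 28 weeks and wild type at 16 weeks.

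AGN was set against vehicle in the DLP of TRAMP mice. At 28 weeks Svs1 was at least 22.0-fold lower with AGN than with vehicle (log2 difference -4.46), Svs6 at least 7.41-fold lower (-2.89) and Svs3a at least 5.20-fold lower (-2.38), where 0.432% of all probes differed by at least 1 log2 unit, 0.156% higher and 0.276% lower. These are lower bounds, since on the AGN array Svs3a was at background and Svs1 within 0.5 log2 units of the array's median; after normexp the Svs3a difference was -4.02. The 4 steady genes differed between these 2 arrays by -0.44 to 0.068, and the second Svs2 probe by -0.74. At 16 weeks 0 of 7 genes reached 1 log2 unit (0.0428% of all probes did, 0.0195% higher and 0.0233% lower): Svs1 differed by 0.12, Svs6 by -0.34 and Svs3a by -0.70. Over both ages the fit called 0 of the 7 genes and 0% of all probes (limma, adjusted p under 0.05; 0 of 7 genes and 1168 probes at an unadjusted p under 0.05), with Svs1 at -2.17 ± 1.74 (SE, adjusted p = 0.937), Svs3a at -1.54 and Svs6 at -1.62. These values rest on 1 array: without AGN at 28 weeks they were 1.19, 0.53 and 0.47. In these bulk samples, fewer cells of a type and less RNA per cell cannot be told apart.

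D/DA did not share the low values. At 28 weeks Svs1 was 1.78-fold, Svs3a 2.09-fold and Svs6 1.38-fold higher with D/DA than with vehicle, and 1 of 7 genes, Svs3a, was at least 1 log2 unit higher (0.346% of all probes differed by that much and 0.0272% were higher). The second Svs2 probe was lower with D/DA at 28 weeks (-1.14; -0.72 on the first probe). At 16 weeks 0 of 7 did (0.035% of all probes, 0.00389% higher and 0.0311% lower). The fit called 0 of 7 genes and 0% of all probes (limma, adjusted p under 0.05; 0 of 7 genes and 2157 probes at an unadjusted p under 0.05), with Svs1 at 0.49 ± 1.74 and Svs2 at -0.33 ± 0.22 (SE, limma adjusted p = 0.681).

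Set against AGN directly, at matched ages, D/DA gave at least 39.2-fold higher Svs1, 10.9-fold higher Svs3a and 10.3-fold higher Svs6 at 28 weeks, bounds set by the same low AGN array (0.0817% of all probes differed by at least 1 log2 unit, 0.0389% higher). At 16 weeks the 3 genes differed by 0.02, 0.07 and 0.16, and 0 of the 7 reached 1 log2 unit (0.0506% of all probes, 0.0233% higher and 0.0272% lower). The fitted difference of Svs1, 2.66 ± 1.74 (SE, limma adjusted p = 1.00), was the highest of all 16593 named genes, yet 0 of 7 genes and 0% of all probes passed (768 probes and 0 of the 7 genes at an unadjusted p under 0.05). Svs3a and Svs6 both stood at 1.76. Without AGN at 28 weeks these became -0.70, -0.31 and -0.33, so the difference between the treatments lay in that array. A p that misses the threshold does not show that the treatments act alike, and the doses behind them are unknown here.

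Between ages, each of the 4 steady genes read lower at 28 than at 16 weeks with D/DA, with AGN and with vehicle, and so did the 3 variable genes, whereas in wild type the variable genes read higher at 28 weeks. With D/DA the 28-week array was lower for Svs1 (-0.61), Svs3a (-0.33) and Svs6 (-0.66), and by at least 1 unit for Svs2 alone (-1.04; -1.95 on its second probe; 0.346% of all probes differed by that much and 0.292% were lower). With AGN it was lower by that much for Svs1 (-5.89), Svs6 (-3.86) and Svs3a (-3.71), each at least this large because the 28-week values include background, and on the second Svs2 probe (-1.09; -0.74 on the first), against 0.14% of all probes and 0.0934% lower. With vehicle it was lower by that much for Svs3a (-2.03), Svs6 (-1.31) and Svs1 (-1.30), against 0.592% and 0.304% lower. In wild type it was higher by that much for Svs1 (4.38), Svs3a (3.63) and Svs6 (2.91), against 0.969% and 0.638% higher.

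The fit over 8 arrays called 0 of 7 genes for age (limma, adjusted p under 0.05). Of all probes it called 0.0778%, 0.0467% higher and 0.0311% lower. Of all 25697 probes, 2266 had an unadjusted p under 0.05, and so did 3 of the 7 genes. These were Svs2 at -0.51 ± 0.16 (SE, limma adjusted p = 0.409; -0.98 on its second probe, adjusted p = 0.240), Svs4 at -0.27 (adjusted p = 0.411) and Svs5 at -0.29 (adjusted p = 0.501). On the 6 TRAMP arrays alone, a choice made after seeing the data, Svs2 fell by 0.68 (adjusted p = 0.0325) and Svs5 by 0.42 (adjusted p = 0.0382), and 414 probes were called in place of 20. Leaving out only wild type at 28 weeks or at 16 weeks gave the same 2 genes at the same differences, since the fit cannot use the age of the remaining wild-type array.

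Wild-type whole prostate, set against wild-type DLP (2 arrays each, ages not matched), had higher Svs4 and Pate4 on both arrays. Svs4 averaged 15.77 ± 0.097 in whole prostate and 15.19 ± 0.073 in DLP (SD, n = 2 each), a difference of 0.58 ± 0.08 (SE, limma adjusted p = 0.0518). Pate4 averaged 15.63 ± 0.014 and 15.14 ± 0.024, a difference of 0.50 (limma adjusted p = 0.0525). The DLP arrays differ in age, so their SDs, and the spread behind these tests, include age. Limma called 0 of 7 genes, against 0.0428% of all probes (0.0311% higher and 0.0117% lower). At an unadjusted p under 0.05 there were 2 of 7, beside 4128 of all 25697 probes. The brightest probe of the array also read higher in whole prostate (16.09 and 16.03) than in DLP (15.50 and 15.58). Svs2 differed by -0.077, and by -0.44 on its second probe (limma adjusted p = 0.260), with no overlap on the second. Without the wild-type DLP array of 16 weeks, Svs4 rose (0.63, limma adjusted p = 0.0277) and Svs3a fell (-3.07, adjusted p = 0.0380). Svs1, Svs3a and Svs6 spread too widely in both tissues to be compared, since each tissue held 1 high and 1 low array.

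Other genes of seminal vesicle secretion, which were not among the 7, showed which arrays carried the variable signal. Svs3b, the paralog of Svs3a, read 14.40 with D/DA, 9.13 with AGN, 13.60 with vehicle and 14.79 in wild type at 28 weeks, and 14.81, 14.78, 14.79 and 11.21 at 16 weeks. Sva, a secreted seminal vesicle autoantigen, read 11.01, 7.21, 10.59 and 12.21 at 28 weeks and 12.12, 11.72, 11.80 and 8.08 at 16 weeks. Both were low on the arrays where Svs1 was low, and so was Ceacam10, a seminal vesicle glycoprotein of the carcinoembryonic antigen family (7.61 with AGN at 28 weeks and 7.64 in wild type at 16 weeks, against 9.42 to 11.10 on the other 6). The whole prostates split in the same way, with 14.04 and 9.95 for Svs3b, 9.17 and 7.27 for Sva and 9.37 and 7.67 for Ceacam10. Sval1 and Sval3, relatives of Sva by name, read 7.03 to 7.25 on all gland arrays, at background.

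The mean of the 7 measured genes of that list correlated with the mean of Svs1, Svs3a and Svs6 at r = 0.99 over the 8 DLP arrays and at 0.32 with the mean of Svs2, Svs4, Svs5 and Pate4. The list holds Svs3b, which sits in the same cluster as Svs3a. Limma called 3 of its 7 genes lower in each carcinoma group than in whole prostate (Svs3b, Ceacam10 and 9530002B09Rik), beside 16.3% of all probes called lower with vehicle and 16.5% with AGN. Beside 4.48% of all probes it called 1 lower in vehicle than in wild-type DLP (9530002B09Rik, by 1.28, limma adjusted p = 0.00156). The gene 9530002B09Rik, unlike Svs3b, did not drop on the low arrays: it read 11.70 with AGN at 28 weeks and 13.03 in wild type at 16 weeks.

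Markers of another tissue moved with the variable genes on 2 of their 3 low gland arrays. The 13 measured skeletal muscle genes averaged 8.54 on wild-type DLP of 16 weeks and 9.05 on whole prostate 2, against 9.73 to 12.02 on the other 8 gland arrays, with Myl1, a fast-fibre myosin light chain, at 9.49 and 10.72 on those 2 arrays and 11.86 to 14.05 elsewhere. On the AGN array of 28 weeks, the lowest for Svs1, they averaged 10.97. All 13 were there at least 1 log2 unit above the array's median, a mark near the upper quartile of all probes. Summed intensity of the muscle list was 41360 there, against 18547 on vehicle at 28 weeks and 11238 on wild type at 16 weeks. Their part in the result was not tested. Over the 8 DLP arrays the muscle mean correlated at 0.57 with the mean of Svs1, Svs3a and Svs6 and at 0.011 with that of the steady genes.

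**Figure D4:**
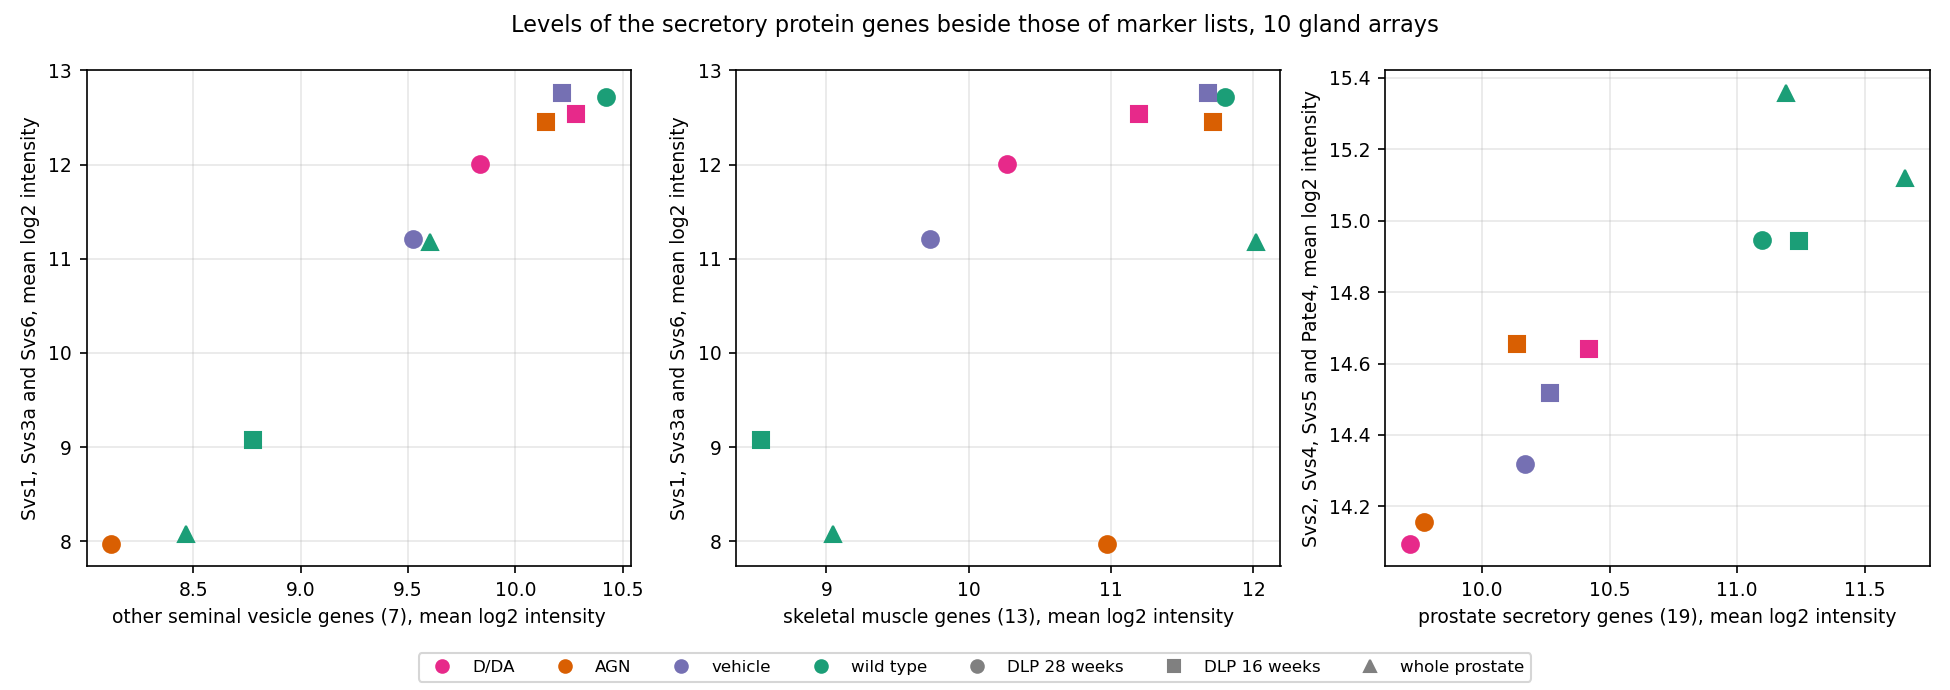
Each point is 1 of the 10 gland arrays, with the mean log2 intensity of 3 or 4 of the genes on the vertical axis and of a marker list on the horizontal axis (colour, treatment; shape, age or tissue). The mean of Svs1, Svs3a and Svs6 followed that of the 7 other seminal vesicle genes. On AGN DLP of 28 weeks it was at its lowest (7.97), while the 13 skeletal muscle genes averaged 10.97, within their range of 8.54 to 12.02. The means of Svs2, Svs4, Svs5 and Pate4 and of the 19 prostate secretory genes were both highest on the 4 wild-type arrays.

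Over the 8 DLP arrays the steady genes followed several lists, that of the prostate's own secretory genes most closely. The mean of Svs2, Svs4, Svs5 and Pate4 correlated over the 8 DLP arrays at 0.93 with the mean of 19 prostate secretory genes, at 0.89 with 9 smooth muscle genes and at -0.69 with 9 adipocyte genes. The mean of Svs1, Svs3a and Svs6 correlated at 0.040, 0.15 and 0.030 with the same lists. The likeness of the steady mean was not particular to prostate secretion. It was 0.85 with 16 neighbour genes of the chromosome 2 cluster and 0.80 with 3 of the Pate4 family. With 11 neuroendocrine genes, which averaged 7.35 to 7.59 on these arrays, it was 0.77, and with the 13 epididymis and vas deferens genes 0.67. Over the 10 gland arrays the order changed. Smooth muscle was closest to the steady mean (0.94), ahead of prostate secretory genes (0.92), and the epididymis and vas deferens list stood at 0.86. Prostate secretory genes averaged 9.72 with D/DA, 9.77 with AGN and 10.17 with vehicle at 28 weeks and 10.14 to 10.42 on the TRAMP arrays of 16 weeks, against 11.10 and 11.24 in wild type.

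Among the partners of the 7 proteins in semen coagulation, Tgm4, the crosslinking enzyme, read 12.67 with D/DA, 12.79 with AGN, 13.35 with vehicle and 15.50 in wild type at 28 weeks, and 14.36, 13.32, 14.09 and 15.58 at 16 weeks. Tgm4 fell by 1.82 ± 0.30 in vehicle against wild-type DLP (SE, limma adjusted p = 0.00963), and Spink1, a serine protease inhibitor, by 1.57 (adjusted p = 0.00952). These were the 2 of 7 measured partner genes that passed, beside the 7.5% of all probes called. In carcinomas 3 of the 7 fell in each group against whole prostate (16.3% of all probes fell with vehicle and 16.5% with AGN), Tgm4 by 8.80 with vehicle and 8.84 with AGN, Spink1 by 8.35 and 7.70, and Eppin, a protease inhibitor of the sperm surface, by 0.37 and 0.32. In the 3 DLP comparisons among TRAMP groups 0 of 7 passed (limma, adjusted p under 0.05). At an unadjusted p under 0.05 there were 2 for AGN and 1 for D/DA against vehicle, and 0 for D/DA against AGN. Over all 25697 probes there were 1168, 2157 and 768 in the same order.

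A search over all named genes asked which had the array pattern most like the mean of the 7 genes. Over the 8 DLP arrays, among 1004 genes that spanned at least 1 log2 unit, the closest were Sva (r = 0.98), Svs3b (0.97), Ceacam10 (0.94), Gm1673 (0.91), Dnase2b (0.90), Dkkl1 (0.89), Sval2 (0.88), Folr1 (0.88), Tulp2 (0.86) and 9530003J23Rik (0.81). Of these 10, 4 were on the list of other seminal vesicle genes, and the mean they were matched to is dominated by the 3 variable genes. Over all 16 arrays, among 5069 genes, the 10 closest were Suox, Tax1bp3, Fam110c, Fas, Pdha1, A4galt, Scin, Cst3, Slc44a4 and Pllp, all at 0.98, and this pattern mainly parts the 10 gland arrays from the 6 carcinomas. The correlations describe arrays of 1 normalized set.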

How the data were processed

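RNA extracted with a column kit was labelled as biotinylated cRNA and hybridised to 16 Illumina mouse bead arrays, per the labels' protocols. The authors deposited linear normalized intensity values for 25697 probes; lumi is named, without a version, in the submitters' processing notes, and the normalization method is not given in the sources used here. Another deposited table, not normalized, was left out because its 32 columns of per-sample values could be tied to no sample label, so detection calls were not available and all probes were tested.

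Values were taken to log2 with no other change. Probe names came from the platform annotation (23978 probes with 1 gene symbol, 0 with several and 1719 with none), of which 23962 matched RefSeq genes of GRCm38.p6 by Entrez ID, with 0 symbols changed. A gene was read from its probe with the highest mean over 16 arrays. Limma 3.58.1 (R 4.3.3) was fitted to all probes with an intensity trend, two-sided, with Benjamini-Hochberg adjustment over all probes and a threshold of 0.05; the procedure was tested on simulated data. Carcinomas and whole prostates were fitted together, and the 8 DLP arrays with additive terms for treatment and age. Of the 16 arrays, 0 pairs held identical values, and the number of arrays limits the precision.

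The 7 genes and the 14 gene lists were chosen with earlier results of these data known. Besides the 7, genes could be named if they were among the 3 measured genes of a list with the highest mean level, if they were Pbsn or Tgm4, or if they were among the 10 most like the mean of the 7 in pattern; Sval1, Sval3, Eppin, Wfdc3, Wfdc10, Wfdc12 and the genes most like the 4 steady ones were named after their values were seen. Same-numbered AGN and vehicle carcinomas deviated from their group means with r = -0.04, -0.26 and 0.16, so the numbers were not taken as pairs. Alternatives were quantile normalization, median centring, background subtraction with normexp (offset 16), no intensity trend, array weights, a filter on dim probes, a 2-fold minimum, a replicate block, 1 fit of all 16 arrays and leaving out each array.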

Additional observations from a re-analysis of the deposited data

Results flagged for a closer look

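Svs1, Svs3a and Svs6 moved in opposite directions at the 2 ages when TRAMP and wild-type DLP were compared, with 1 array in each group, so the difference between the ages was not tested. For vehicle minus wild type, the log2 differences at 28 and 16 weeks were -1.56 and 4.12 for Svs1, -1.65 and 4.0 for Svs3a, and -1.29 and 2.93 for Svs6. For AGN minus wild type they were -6.01 and 4.25 for Svs1, -4.03 and 3.30 for Svs3a, and -4.18 and 2.59 for Svs6. Both sets use the same 2 wild-type arrays, and the one of 16 weeks was low for all 3 genes. Where an array was near background, as AGN was at 28 weeks for Svs1 and Svs3a and wild type at 16 weeks for Svs3a, the differences are lower bounds of their size.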

How the results depend on the processing

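All 10 gland arrays had a higher mean of the 7 genes than every carcinoma under each scaling tried, with the second Svs2 probe, and for each set of genes alone. AGN of 28 weeks was the lowest DLP array for the mean of the 7 and wild type of 16 weeks the next under every scaling. Of single values under alternatives, 477 kept direction and call, 21 gained a call, 8 lost one, 11 reversed and 1 moved; of counts, 113 stayed within 1.5 times and 11 did not. The count of genes called was 5 to 7 when each array was left out for each carcinoma group against whole prostate. For Svs1 the call was also lost with no intensity trend (adjusted p = 0.0731 with vehicle and 0.0685 with AGN), and Svs3a gained one after normexp (differences -2.53 and -2.52). For AGN against vehicle carcinomas, the replicate block called 1 gene, Svs4 (adjusted p = 0.00360), with 502 probes called in place of 10; the samples share only a number, and vehicle 1 correlated best with AGN 2 (r = 0.32) rather than with its own number. The block called 7 genes for each carcinoma group against whole prostate. Of all 25697 probes it called 2874 higher and 3885 lower with vehicle, and 3098 and 3986 with AGN. Vehicle against wild-type DLP had 2 genes under quantile normalization, 0 with a 2-fold minimum and 0 to 4 when an array was left out. Age in the DLP had 2 genes on TRAMP arrays only, an alternative added after seeing the data, and 0 to 2 when an array was left out, and whole prostate against DLP of wild type 0 to 2. The other DLP comparisons kept 0 under every alternative.

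Reversed values were Svs4 in vehicle against wild-type DLP under quantile normalization (0.34), the 3 variable genes there without wild type of 16 weeks (-2.20, -1.65 and -1.61; 4.77, 4.0 and 3.25 without wild type of 28 weeks), in AGN against vehicle without AGN of 28 weeks (1.19, 0.53 and 0.47; -5.52, -3.60 and -3.70 without AGN of 16 weeks) and in D/DA against AGN without AGN of 28 weeks (-0.70, -0.31 and -0.33; 6.01, 3.82 and 3.85 without AGN of 16 weeks), and Svs2 in D/DA against vehicle without D/DA of 28 weeks (0.023; -0.67 without D/DA of 16 weeks). Apart from fewer arrays, the cause was not tested. The Svs3a difference between AGN and vehicle at 28 weeks was -4.02 after normexp. Probes called over the array ranged over the alternatives from 3052 to 11844 (7378 as deposited) for vehicle and 3231 to 12712 (7958) for AGN carcinomas against whole prostate, 0 to 3335 (10) between carcinomas, 323 to 2967 (1927) in vehicle against wild-type DLP, 0 to 48 (0) in AGN and 0 to 50 (0) in D/DA against vehicle DLP, 0 to 418 (20) for age and 0 to 177 (11) for whole prostate against DLP. Normexp moved the median of all probes to -0.36 and -0.39 for vehicle and AGN carcinomas against whole prostate and to 0.16 for whole prostate against DLP. Values near background limit what the arrays show for the variable genes.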

Other observations

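Neighbours of the Svs genes on chromosome 2 and relatives of Pate4 gave further array patterns. Pate14, of the Pate4 family, read 13.60 with D/DA, 10.46 with AGN, 12.91 with vehicle and 15.10 in wild type in DLP at 28 weeks, and 13.99, 13.79, 14.40 and 14.39 at 16 weeks. It was low on the AGN array of 28 weeks, as Svs1 was, but not on the wild-type array of 16 weeks. Pate9 read 10.71, 10.61, 11.27 and 13.58 at 28 weeks and 11.53, 10.95, 11.36 and 10.81 at 16 weeks, so wild type of 28 weeks was the highest array. All 3 measured genes of the family (Pate6, Pate9 and Pate14) fell in each carcinoma group against whole prostate, Pate14 by 7.16 with vehicle and 7.15 with AGN (limma, adjusted p under 0.05), beside 16.3% and 16.5% of all probes called lower.

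Wfdc15b, the neighbour of Svs2 and a whey acidic protein family member, read 12.33 with D/DA, 12.31 with AGN, 13.02 with vehicle and 14.13 in wild type at 28 weeks and 13.73, 13.20, 13.32 and 13.44 at 16 weeks. Of 16 measured genes of the locus list, limma called 2 lower in vehicle than in wild-type DLP (Wfdc3 by 5.15 and Wfdc10 by 1.13) and 1 higher (Wfdc12 at 1.57), beside 4.48% of all probes called lower and 3.02% higher. Wfdc12 was also the 1 gene of the list called between AGN and vehicle carcinomas (-1.12 ± 0.12, SE, limma adjusted p = 0.00730; 0.0389% of all probes were called), and Wfdc3 the 1 called between ages (-1.05, adjusted p = 0.0429; 0.0778% of all probes). With the 4 steady genes alone, the patterns most alike over the 8 DLP arrays were those of Rerg, Hoxb2, Cdo1, Kcnn4 and Hoxd9 (r = 0.98 each). None of the 10 closest was on the list of other seminal vesicle genes or on that of prostate secretory genes.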
